A study of Mus musculus with 18 samples.

Results

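The response of ERK3-depleted mouse myoblasts to differentiation was read from 6 of the 18 libraries of the series, taken by their labels: 3 libraries of the ERK3-depleted stable line in growth medium (GM) and 3 of the same line after 2 days in differentiation medium (DM2). Both groups are C2C12 cells, an established mouse muscle line, transfected with the plasmid px459-Mapk6sg, a Cas9 vector whose guide is named for Mapk6, the gene of ERK3. The other 12 libraries serve as a reference here. They come from a control line transfected with control plasmid and an MK5-depleted line transfected with px459-Mk5sg, each with 3 libraries in GM and 3 at DM2. The labels do not say whether a line is 1 clone or a pool, or whether replicates are separate cultures, so the p-values cover the scatter among these libraries, which may be technical.

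Myoblasts are muscle precursor cells that divide in growth factors. When these are withdrawn, the bHLH factors Myod1 and Myog and their MEF2 partners turn on muscle genes, the cells leave the cell cycle, and mononucleated cells fuse into myotubes that build sarcomeres. ERK3 is an atypical MAP kinase that binds and activates the kinase MK5, and the title of the series places both upstream of the degradation of FoxO3, a transcription factor of atrophy and stress genes.

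The 6 libraries held 23.6 to 28.6 M reads and 17.5 to 19.4 M counts in genes, and 13939 genes passed the count filter set over all 18 libraries. The DM2 libraries did not form an even group. Libraries 1 and 2 stood apart from library 3 on the second principal component of log2 counts, at 40.1 and 46.1 against 3.82, where the 3 GM libraries lay between 4.14 and 15.0. Reads outside annotated genes made up 8.05, 9.78 and 5.54% of the DM2 libraries and 4.68, 5.89 and 5.13% of the GM libraries (reverse strand; exact permutation test, two-sided p = 0.2, n = 3 and 3, where the smallest possible p is 0.1). Mitochondrial genes held 5.14, 8.18 and 4.49% of all TPM (transcripts per M) at DM2, and 1.85% ± 0.222 (SD, n = 3) in GM. Gene values and list counts below are therefore given also without DM2 libraries 1 and 2 where that ended a call or moved a value or a count of calls above 1 by 1.5 times or more. That fit leaves library 3 as the sole DM2 library and assumes that it varies like the other groups.

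**Figure D1:**
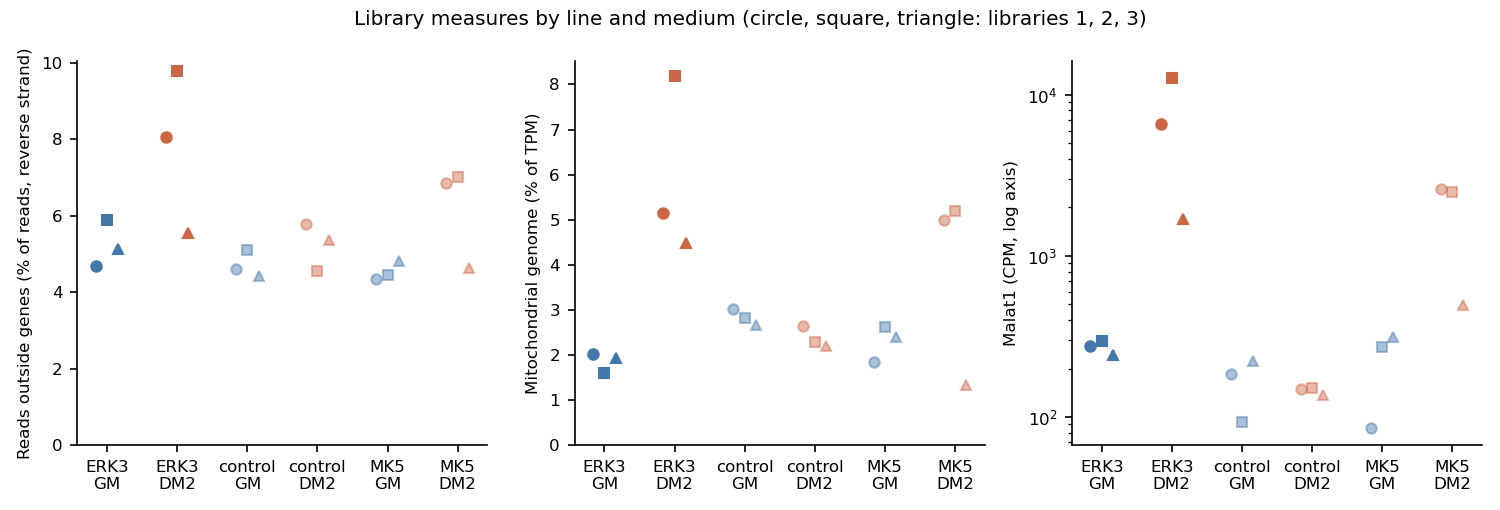
Share of reads outside genes (percent, left), share of TPM from the mitochondrial genome (percent, middle) and Malat1 level (CPM, log axis, right) in each library of the 6 groups, with circles, squares and triangles for libraries 1, 2 and 3. ERK3-depleted DM2 libraries 1 and 2 lie highest for reads outside genes and Malat1, and in each panel MK5-depleted DM2 libraries 1 and 2 lie above the third library of their group.

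Mapk6, the targeted gene, was counted at 115, 105 and 133 CPM (counts per M counted reads, scaled by TMM) in the 3 GM libraries. At DM2 it stood at 116, 96.8 and 136 CPM, so the groups overlapped (log2 fold change -0.02 ± 0.12 SE, adjusted p = 0.899, edgeR quasi-likelihood test). The control line held 150, 119 and 124 CPM in GM, a range that overlaps that of the ERK3-depleted line. In the control line Mapk6 rose by 0.68 on the log2 scale, and the responses of the lines differed by -0.70 ± 0.17 (adjusted p = 0.00788). Without DM2 libraries 1 and 2 that difference was -0.48 ± 0.18 and was not called (adjusted p = 0.159). In the MK5-depleted line, whose guide is named for another gene, Mapk6 did not rise either. It stood at 174, 142 and 175 CPM in GM and at 161, 153 and 163 CPM at DM2. RNA counts over the whole gene do not test whether the guide changed the ERK3 protein.

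Myog, the bHLH factor that starts terminal differentiation, stood at 42.9, 26.3 and 25.9 CPM in GM and at 333, 294 and 499 CPM at DM2. It rose by 3.57 ± 0.36 on the log2 scale (adjusted p = 1.07e-06), and the lowest DM2 library lay far above the highest GM library. Mki67, a nuclear protein of cycling cells, moved much less. It stood at 197, 268 and 220 CPM in GM and at 173, 144 and 194 CPM at DM2 (log2 fold change -0.42 ± 0.15, adjusted p = 0.0292), with no DM2 library above the lowest GM library. The Mki67 call was lost without DM2 libraries 1 and 2 (-0.23 ± 0.22, adjusted p = 0.472). It was also lost without DM2 library 1, DM2 library 2 or GM library 2 alone (adjusted p = 0.0665, 0.122 and 0.149), and with RSEM expected counts (adjusted p = 0.0818). The 9 myoblast and muscle markers, led by Des, summed to 2220 to 2530 CPM in GM and 4220 to 4760 CPM at DM2, and none was at 0. Des averaged 1800 CPM over the 6 libraries and so held much of these sums. Of the 9 markers, 6 were called higher at DM2 and 1 lower.

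**Figure D2:**
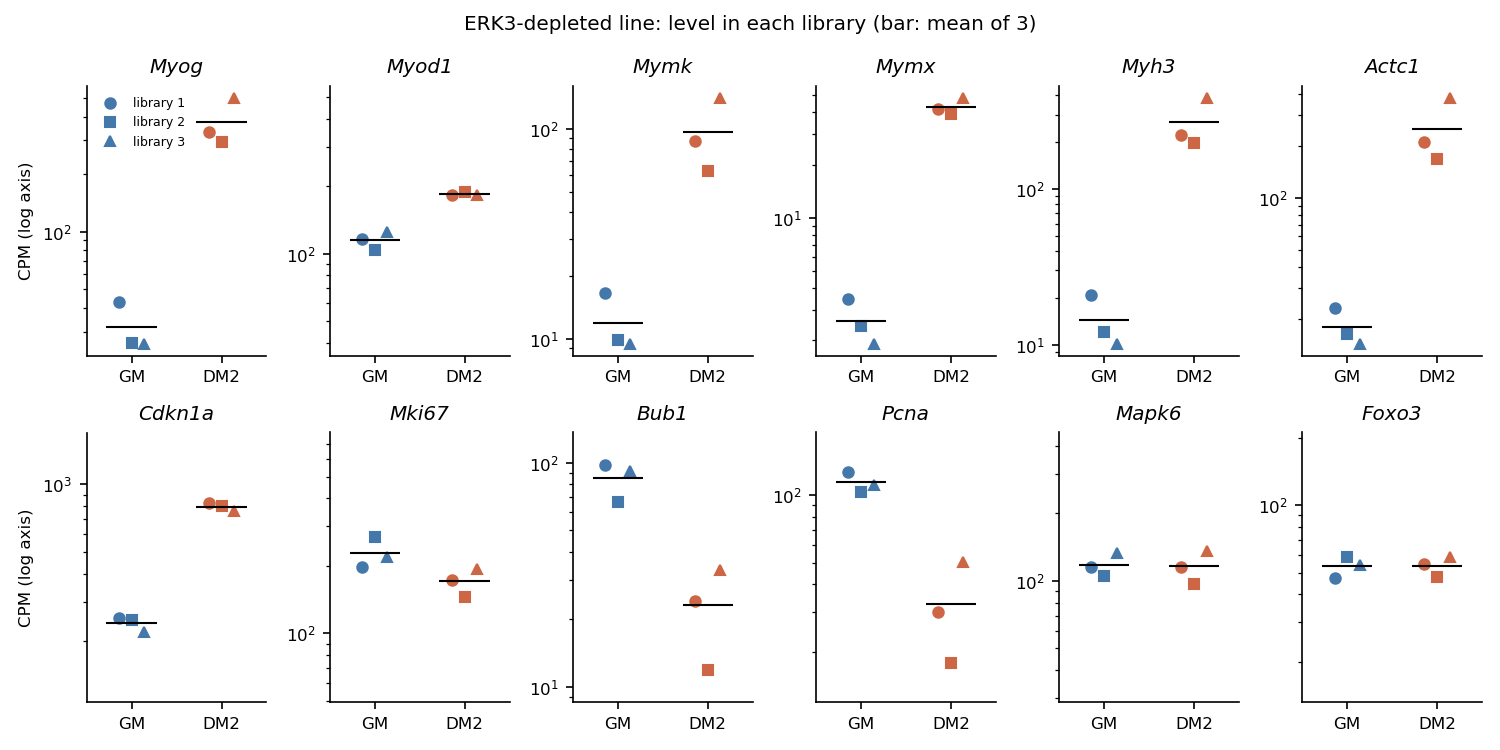
Level of 12 genes (CPM, log axis) in each ERK3-depleted library in GM (blue) and at DM2 (orange), with the mean of 3 libraries as a bar. Myog rises from 25.9 to 42.9 CPM in GM to 294 to 499 CPM at DM2, Pcna falls in each DM2 library, and Mapk6 overlaps between media.

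Over all genes tested, 7680 of 13939 (55.1%) were called at an adjusted p under 0.05. Of these 4023 (28.9% of genes tested) were higher at DM2 and 3657 (26.2%) were lower. The change exceeded 2-fold for 2100 called genes, 1230 higher and 870 lower, and the median log2 fold change of all genes was 0.015. The 3 DM2 and 3 GM libraries did not overlap for 7542 genes (54.1%). Without DM2 libraries 1 and 2, 4382 genes were called, of which 4004 were also called with all libraries in the same direction. Deposited TPM, compared without scaling between libraries, moved the median of all genes to -0.27, so 1714 genes were called higher and 5599 lower on that scale (23.4% of calls higher, against 52.4% here). Directions in the text are relative to the median gene. List counts below are to be read beside the 28.9% of all genes tested that were higher and the 26.2% that were lower. Counts without DM2 libraries 1 and 2 come from a fit with fewer calls over all genes.

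**Figure D3:**
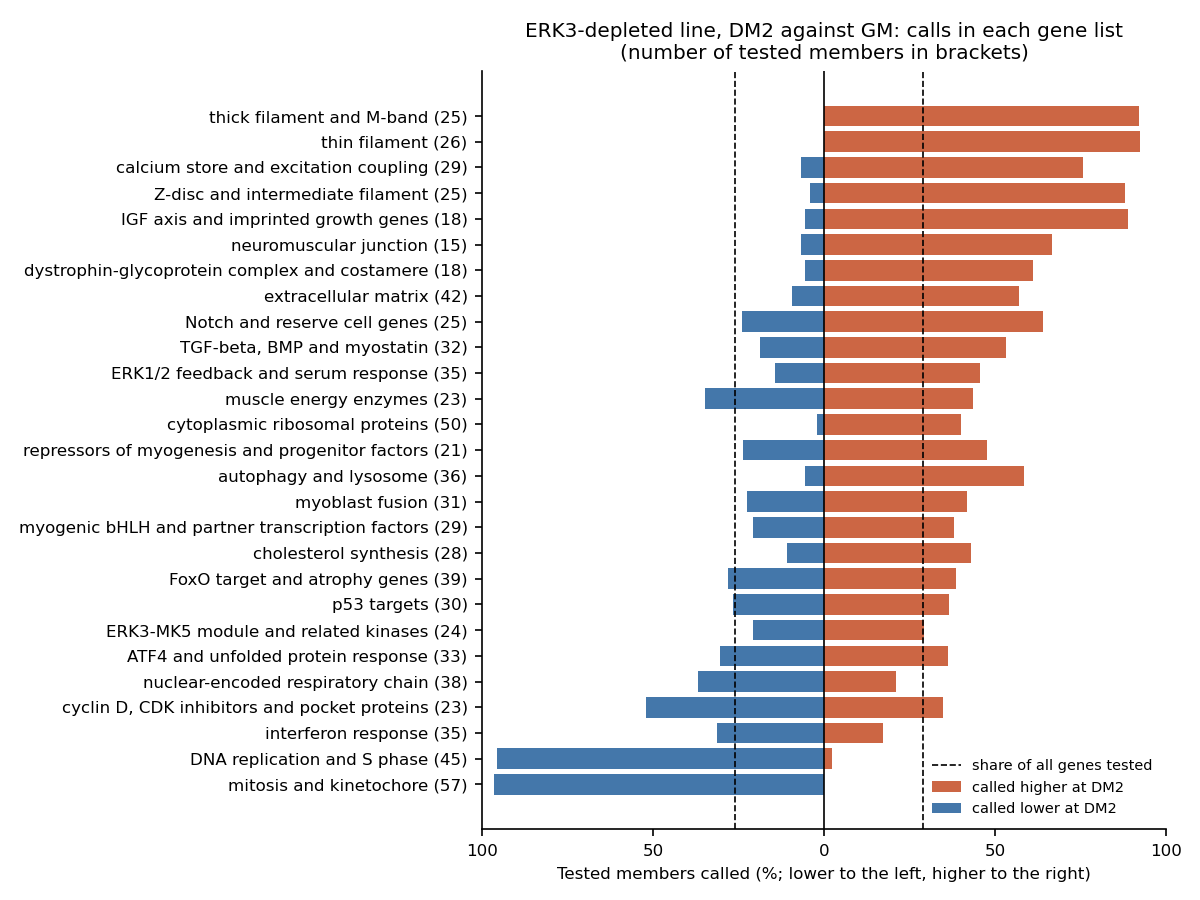
Percent of tested members of each gene list called higher (orange, right) or lower (blue, left) at DM2 in the ERK3-depleted line, ordered by median log2 fold change, with dashed lines at the shares over all genes tested (28.9% higher and 26.2% lower). The thick and thin filament lists lie at the top with 23 of 25 and 24 of 26 members higher, and the mitosis list lies at the bottom with 55 of 57 members lower.

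Of 33 myogenic transcription factors, 29 passed the filter. Of these 11 were called higher and 6 lower (median log2 fold change 0.18), beside 28.9 and 26.2% of all genes tested. The counts were 12 and 1 without DM2 libraries 1 and 2 (0.14), and 7 and 7 on TPM (-0.10). Myod1, Myog, Mef2a, Mef2c and Tead4 were among those higher, and Myf5 among those lower. Myod1, the bHLH factor that commits cells to muscle, stood at 116, 104 and 125 CPM in GM and at 183, 188 and 182 CPM at DM2, with no overlap (log2 0.68 ± 0.13, adjusted p = 0.000259), a call that was lost on TPM (0.32, adjusted p = 0.135 by limma). The MEF2 genes, whose products act with the bHLH factors on muscle genes, differed in size. Mef2c went from 0.376, 0 and 0.439 CPM to 8.18, 5.40 and 4.57 CPM (log2 4.47 ± 0.52), and Mef2a from 106, 83.8 and 106 CPM to 194, 175 and 245 CPM (1.05 ± 0.12). Mef2d stood at 71.4, 73.5 and 82.2 CPM and then 83.7, 77.1 and 103 CPM, which overlap (0.22 ± 0.10, adjusted p = 0.0789). Mef2d was called with the replicate number as a block (adjusted p = 0.0396), without DM2 library 2 (0.29, adjusted p = 0.0372) and without DM2 libraries 1 and 2 (0.45, adjusted p = 0.00883), while unstranded counts and TPM put it just below 0. Tead4, a TEAD factor of muscle promoters, rose by 1.65 ± 0.20. Myf5, an early bHLH factor of muscle progenitors, fell by 0.52 on the log2 scale from 20.7 to 27.7 CPM to 11.2 to 21 CPM, where DM2 library 1 overlapped the GM range. The Myf5 call was lost without DM2 library 2 or GM library 1 (adjusted p = 0.0775 and 0.0798), without DM2 libraries 1 and 2 (-0.37 ± 0.18, adjusted p = 0.137), and in a fit of the 6 libraries alone (adjusted p = 0.0701). Tcf4, an E protein that pairs with bHLH factors, rose by 1.64 ± 0.21, but its DM2 libraries stood at 903, 1120 and 495 CPM and its rise without DM2 libraries 1 and 2 was 0.88 ± 0.18.

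Of 21 tested repressors of myogenesis and progenitor factors, 10 were called higher and 5 lower (median log2 0.30). The counts were 9 and 3 without DM2 libraries 1 and 2 (0.58), and 6 and 6 on TPM (0.01). The Id proteins, which bind E proteins and keep bHLH factors off DNA, fell together. Id3 went from 410, 332 and 345 CPM to 132, 165 and 94.6 CPM (log2 -1.47 ± 0.17), Id2 fell by 1.03 ± 0.16, and Id1 fell by 0.64 ± 0.10. For each of the 3 Id genes the highest DM2 library lay below the lowest GM library. Heyl, a Notch target and bHLH repressor, rose from 20.4 to 21.9 CPM to 73.8 to 89.2 CPM (1.90 ± 0.16), and Zeb1, a zinc finger repressor, rose by 1.55 ± 0.10. Hdac9, a class II deacetylase that binds MEF2, rose by 1.82 ± 0.39. Twist2, a bHLH repressor of mesenchymal cells, fell by 0.61 ± 0.14, but the call was lost without DM2 libraries 1 and 2 (-0.51 ± 0.19, adjusted p = 0.0525) and on unstranded counts (adjusted p = 0.121).

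Of 31 tested fusion genes, 13 were called higher and 7 lower, with a median of 0.21. The counts were 13 and 3 without DM2 libraries 1 and 2 (0.24), and 10 and 11 on TPM (-0.08). Mymk (myomaker) is the membrane protein that muscle cells need to fuse. It was counted at 16.5, 9.83 and 9.48 CPM in GM and at 86.9, 63.0 and 140 CPM at DM2, again without overlap (log2 3.01 ± 0.45, adjusted p = 5.57e-05). Mymx (myomixer), the small protein that acts after myomaker, went from 3.43, 2.41 and 1.92 CPM to 41.6, 38.9 and 48.0 CPM (4.05 ± 0.21). Cav3, the muscle caveolin, rose by 4.01 ± 0.38 from under 1 CPM in each GM library. Dock1, a Rac exchange factor, fell by 0.75 ± 0.13, the integrin subunit gene Itga3 by 0.50 ± 0.11, and the tetraspanin gene Cd9 by 0.47 ± 0.10. The change was -0.48 ± 0.16 in Dock1 and -0.77 ± 0.12 in Itga3 without DM2 libraries 1 and 2.

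The thick and thin filament lists had the highest medians of the 27 lists. Of 25 tested thick filament and M-band genes, 23 were called higher and 0 lower (median log2 2.97). Of 26 thin filament genes, 24 were higher and 0 lower (2.81). Of 25 Z-disc and intermediate filament genes, 22 were higher and 1 lower (1.23). On TPM these 3 lists held 18, 22 and 13 calls higher and 0, 1 and 0 lower. Together these lists went from 0.491% ± 0.0191 of TPM in GM to 1.01% ± 0.207 at DM2 (SD, n = 3), with single DM2 libraries at 0.967, 0.822 and 1.23%. More differentiated cells and more RNA per cell cannot be told apart in such bulk samples. Ttn, the titin spring that spans the sarcomere, stood at 17.4, 10.1 and 12.5 CPM in GM and 289, 311 and 238 CPM at DM2 (4.39 ± 0.27). Myh3, the embryonic myosin heavy chain, went from 20.9, 12 and 10.1 CPM to 224, 198 and 384 CPM (4.23 ± 0.41). Actc1, the cardiac actin of young muscle, went from 23.0, 16.2 and 14.4 CPM to 211, 167 and 377 CPM (3.81 ± 0.32). Myh3 and Actc1 were highest in DM2 library 3 and Ttn in DM2 library 2. Tnnc2, fast troponin C, rose by 4.44 ± 0.27, Klhl40, a Kelch protein that stabilises thin filaments, by 4.39 ± 0.29, and Neb, nebulin, by 3.71 ± 0.18. At the Z-disc, Pdlim3 rose by 3.63 ± 0.53, Myoz2 by 3.92 ± 0.42, and Csrp3, a LIM protein, by 3.06 ± 0.39. Without DM2 libraries 1 and 2 the 3 medians were 3.29, 3.10 and 1.12, with 22, 23 and 22 members higher.

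Of 29 tested genes of the calcium store and excitation coupling, 22 were called higher and 2 lower (median log2 1.91). Ryr1, the calcium release channel, went from 3.97, 3.28 and 3.07 CPM to 29.9, 35.2 and 30.4 CPM (3.21 ± 0.27), and Cacna1s, the voltage sensor of that channel, rose by 3.21 ± 0.33. Atp2a1, the fast calcium pump, rose by 2.96 ± 0.29. Trdn, triadin, which anchors the release channel, rose by 3.66 ± 0.41 with DM2 libraries at 361, 513 and 146 CPM. Of 15 tested neuromuscular junction genes, 10 were higher and 1 lower (1.10), among them Dok7, an adaptor of the kinase MuSK (2.87 ± 0.32), and the acetylcholine receptor subunits Chrng (2.16 ± 0.18) and Chrnd (1.67 ± 0.20). Of 18 tested dystrophin complex and costamere genes, 11 were higher and 1 lower (0.64). Itgb1bp2, the muscle chaperone melusin, rose most in that list (4.11 ± 0.26). Of 23 tested energy enzymes, 10 were higher and 8 lower, beside 28.9 and 26.2% of all genes tested. On TPM the energy enzyme counts were 8 and 9 (median log2 -0.06). The calcium, junction and costamere lists held 17, 9 and 9 calls higher and 4, 2 and 2 lower on TPM. Their medians on that scale were 1.22, 0.43 and 0.32. Ckm, muscle creatine kinase, went from 4.99, 3.69 and 3.4 CPM to 39.8, 33.6 and 57.7 CPM (3.44 ± 0.30), and Cox6a2, a muscle cytochrome oxidase subunit, rose by 4.22 ± 0.29. Pdk4, a brake on pyruvate use, fell by 1.72 ± 0.12, Pfkm, muscle phosphofructokinase, by 1.08 ± 0.12, and Ldha, lactate dehydrogenase A, by 1.05 ± 0.09.

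Promoter windows of 3 genes that rose are shown for their E-boxes, the letters CANNTG that bHLH factors such as Myod1 and Myog bind. They run from 250 bases before to 50 after the start in RefSeq (GRCm38.p6), and the genes and motifs were chosen after the windows had been read. Capitals mark CAGCTG in Chrng and Ckm and a pair of other CANNTG matches in Myog.
Myog, chr1:134289754-134290053 (+): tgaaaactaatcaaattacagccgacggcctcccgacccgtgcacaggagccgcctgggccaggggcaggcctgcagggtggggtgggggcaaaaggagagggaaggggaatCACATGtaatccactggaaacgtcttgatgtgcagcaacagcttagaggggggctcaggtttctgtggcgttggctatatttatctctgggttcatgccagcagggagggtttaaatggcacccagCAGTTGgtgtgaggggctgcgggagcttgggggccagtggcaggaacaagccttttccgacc
Chrng, chr1:87205561-87205860 (+): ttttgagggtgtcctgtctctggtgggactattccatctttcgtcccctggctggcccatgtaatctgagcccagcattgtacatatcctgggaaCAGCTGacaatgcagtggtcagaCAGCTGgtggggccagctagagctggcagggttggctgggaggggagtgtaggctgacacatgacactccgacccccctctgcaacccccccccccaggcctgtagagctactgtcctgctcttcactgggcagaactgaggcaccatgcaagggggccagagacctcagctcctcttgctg
Ckm, chr7:19410844-19411143 (+): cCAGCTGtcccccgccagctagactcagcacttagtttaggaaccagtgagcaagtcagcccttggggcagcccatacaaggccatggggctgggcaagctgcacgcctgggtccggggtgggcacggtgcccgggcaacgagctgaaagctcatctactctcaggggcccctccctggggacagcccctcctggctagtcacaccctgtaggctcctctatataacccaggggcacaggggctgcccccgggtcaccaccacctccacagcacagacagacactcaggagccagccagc
CAGCTG, which reads the same on both strands and is itself a CANNTG match, lies in 16.1% of 27025 RefSeq windows, in 15.4% of the 10133 windows of tested genes and in 34.4% of the 90 windows found for the sarcomere, calcium and junction lists. The wider CANNTG lies in 72.1, 62.5 and 78.9% of them. Among all genes called over 2-fold higher, CAGCTG lies in 24.3% of 720 windows. Among those called over 2-fold lower it lies in 17.5% of 570. A match is a stretch of letters, and binding was not measured.

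**Figure D4:**
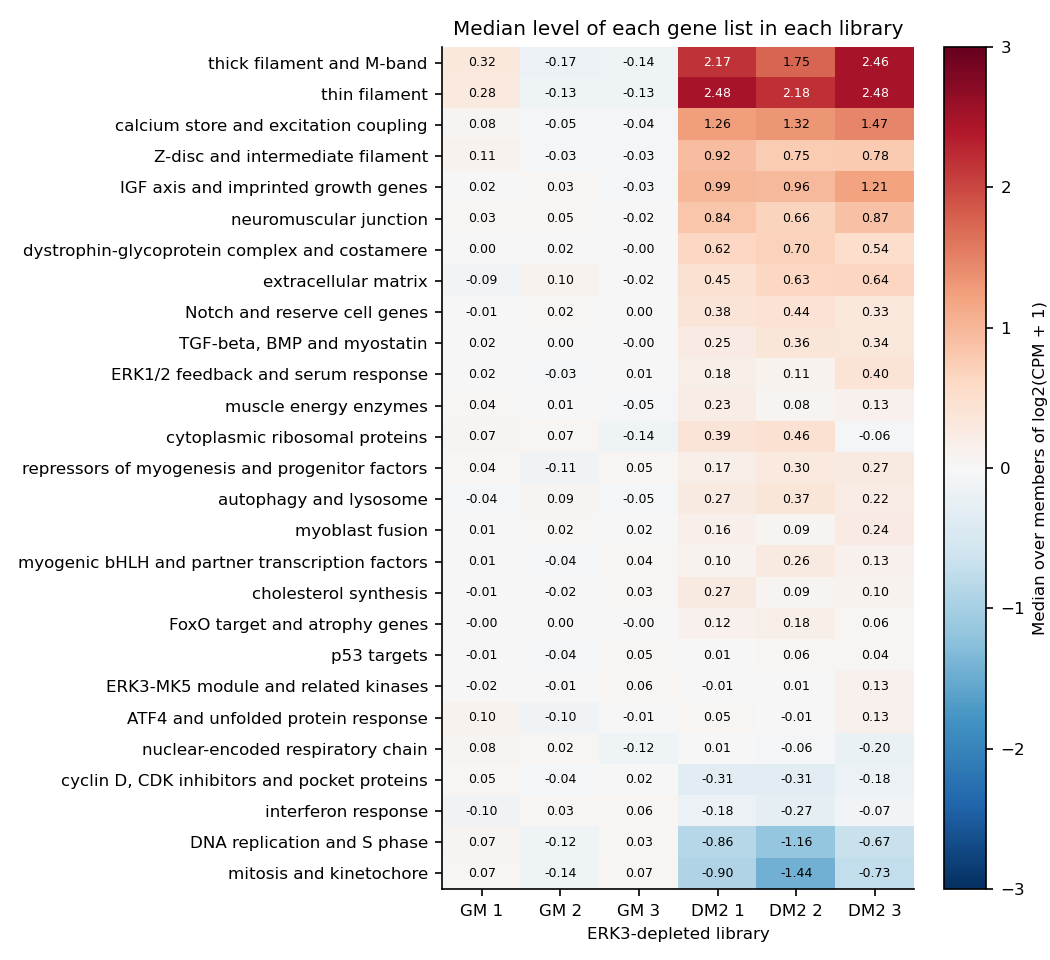
Median over tested members of log2(CPM + 1) minus the GM mean, for each gene list (rows) in each ERK3-depleted library (columns). The sarcomere lists lie above 0 in the 3 DM2 libraries, the mitosis list is lowest in DM2 library 2 (-1.44), and ribosomal protein genes stand at 0.39 and 0.46 in DM2 libraries 1 and 2 and at -0.06 in library 3.

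Nearly all tested genes of the cell cycle lists fell. Of 45 tested replication and S phase genes, 43 were called lower and 1 higher (median log2 -0.92), and of 57 mitosis and kinetochore genes, 55 were lower and 0 higher (-1.0). Their share of TPM went from 0.594% ± 0.0529 in GM to 0.269% ± 0.0792 at DM2 (SD, n = 3). Pcna, the sliding clamp of DNA polymerase, stood at 127, 104 and 112 CPM in GM and at 30, 17.9 and 50.4 CPM at DM2 (-1.79 ± 0.26). Bub1, a kinase of the spindle checkpoint, went from 97.5, 67.0 and 91.4 CPM to 24.1, 11.9 and 33.3 CPM (-1.88 ± 0.25). Kif20a, a kinesin of cell division, fell by 2.11 ± 0.27, Mcm5 and Mcm4, subunits of the replicative helicase, by 1.53 ± 0.19 and 1.52 ± 0.18, and Ccne2, cyclin E2, by 1.76 ± 0.27. For each of these genes DM2 library 2 was the lowest and library 3 the highest of the DM2 group. Without DM2 libraries 1 and 2 the medians were -0.68 and -0.74, and 36 and 42 members were called lower, with Pcna at -1.17 ± 0.24.

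Of 23 tested cyclin D genes, inhibitors and pocket proteins, 8 were called higher and 12 lower, and without DM2 libraries 1 and 2 the counts were 8 and 7. Cdkn1a, the inhibitor p21, stood at 254, 247 and 220 CPM in GM and at 824, 797 and 764 CPM at DM2 (1.72 ± 0.09, adjusted p = 2.33e-10), with little spread in either group. Ccnd1, the cyclin D that growth factors sustain, fell from 184, 207 and 212 CPM to 118, 144 and 103 CPM (-0.72 ± 0.12). Ccnd3, the cyclin D of differentiating muscle, rose by 1.11 ± 0.09, Ccnd2 by 1.36 ± 0.13, and Cdkn1c, the inhibitor p57, by 1.35 ± 0.20. Rbl1, the pocket protein p107, fell by 1.28 ± 0.17. On TPM this list held 5 calls higher and 14 lower (median log2 -0.53).

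Promoter windows of a pair of cell cycle genes that fell are shown for motifs of cell cycle promoters, chosen in the same way. In Mcm5, capitals mark an E2F-like TTTNGCGC, found on both strands at overlapping places, and 3 CCAAT boxes. In Bub1b they mark a CCAAT box on the reverse strand and TTTGAA, an element like the CHR.
Mcm5, chr8:75109259-75109558 (+): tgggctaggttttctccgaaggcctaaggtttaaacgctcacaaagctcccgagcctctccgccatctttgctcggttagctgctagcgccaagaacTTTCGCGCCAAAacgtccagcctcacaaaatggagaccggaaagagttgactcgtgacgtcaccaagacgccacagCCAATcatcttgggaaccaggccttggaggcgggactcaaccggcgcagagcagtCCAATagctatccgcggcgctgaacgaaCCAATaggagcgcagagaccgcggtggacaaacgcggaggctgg
Bub1b, chr2:118597961-118598260 (+): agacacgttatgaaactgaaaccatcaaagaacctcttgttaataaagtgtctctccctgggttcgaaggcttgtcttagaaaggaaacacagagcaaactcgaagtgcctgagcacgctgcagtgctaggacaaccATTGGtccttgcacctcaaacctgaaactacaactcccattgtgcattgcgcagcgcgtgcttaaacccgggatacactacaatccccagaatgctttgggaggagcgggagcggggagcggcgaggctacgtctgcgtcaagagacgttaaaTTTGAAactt
Counting both strands, TTTNGCGC lies in 1.38% of all RefSeq windows, in 2.45% of those of tested genes and in 17.4% of the 86 windows found for the cell cycle lists. CCAAT lies in 37.9, 39.1 and 68.6% of them, and TTTGAA in 18.1, 11.5 and 45.3%. Among all genes called over 2-fold lower the shares of these motifs are 3.33, 43.5 and 16.5% of 570 windows. Among those called over 2-fold higher they are 0.694, 34.6 and 9.58% of 720.

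Of 24 genes of the ERK3-MK5 module and related kinases, 7 were called higher and 5 lower (median log2 0.06), a share near that of all genes tested. The counts were 5 and 4 without DM2 libraries 1 and 2 (0.14), and 2 and 7 on TPM (-0.28). Foxo3 stood at 47.5, 58.4 and 54.1 CPM in GM and at 54.8, 47.7 and 58.3 CPM at DM2, which overlap (0.01 ± 0.09, adjusted p = 0.945). Mapkapk5, the gene of MK5, was counted at under 1.1 CPM in each of the 6 libraries (0.26 ± 0.29, adjusted p = 0.478), while RSEM put it at 59.6 ± 4.05 TPM in GM. Its counts are therefore uncertain. With RSEM expected counts it was called higher (log2 0.25, adjusted p = 0.00571). Foxo6, a FoxO factor, rose by 1.29 ± 0.24. Foxo1 rose by 0.60 ± 0.14 (0.22 without DM2 libraries 1 and 2, adjusted p = 0.249, and 0.20 on TPM, adjusted p = 0.101 by limma). Mapk12, the p38 gamma of muscle, rose from 32.1 to 35.1 CPM to 50.2 to 79.0 CPM (0.99 ± 0.12), and Mapk3, the gene of ERK1, fell by 0.38 ± 0.10. Without DM2 libraries 1 and 2 these changes were 0.59 ± 0.11 and -0.61 ± 0.13.

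Of 39 tested FoxO target and atrophy genes, 15 were called higher and 11 lower (median 0.14), beside 28.9 and 26.2% of all genes tested. The counts were 11 and 10 without DM2 libraries 1 and 2 (0.07), and 7 and 18 on TPM (-0.32). Trim63, the ubiquitin ligase MuRF1, went from 0.858, 0.666 and 0.384 CPM to 8.35, 8.87 and 7.31 CPM (3.67 ± 0.23). Fbxo32, the ligase atrogin-1, stood at 90.9, 91.3 and 95.3 CPM and then 108, 113 and 103 CPM (0.23 ± 0.11, adjusted p = 0.0896). Gadd45a, a growth arrest gene, rose by 1.26 ± 0.12, Irs2, an adaptor of the insulin receptor, by 1.21 ± 0.09, and Bcl6, a repressor, by 1.42 ± 0.09. Txnip, an inhibitor of thioredoxin, fell by 1.52 ± 0.18, and Sesn1, a sestrin, by 0.64 ± 0.10. The p53 target list held 11 higher and 8 lower of 30, and 8 and 4 without DM2 libraries 1 and 2.

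Of 18 tested genes of the IGF axis and imprinted growth genes, 16 were called higher and 1 lower (median log2 1.15). Igf1 went from 12.1, 10.9 and 9.97 CPM to 62.0, 91.2 and 61.0 CPM (2.70 ± 0.19), Igf2, which myoblasts secrete as they differentiate, from 32.6, 22.8 and 27.4 CPM to 122, 155 and 195 CPM (2.51 ± 0.29), and the binding protein gene Igfbp4 rose by 3.18 ± 0.19. Of 42 tested matrix genes, 24 were higher and 4 lower (0.51), and 24 and 2 without DM2 libraries 1 and 2. Dcn, the proteoglycan decorin, went from 4.50, 5.84 and 3.23 CPM to 64.4, 88.1 and 55.5 CPM (3.93 ± 0.35), and Postn, periostin, rose by 2.69 ± 0.20. Among Notch and reserve cell genes 16 of 25 were higher and 6 lower (13 and 1 without DM2 libraries 1 and 2), with the ligand gene Dll1 up by 2.54 ± 0.23 and Lfng, which modifies Notch, down by 1.23 ± 0.14 on the log2 scale. Among TGF-beta, BMP and myostatin genes 17 of 32 were higher and 6 lower (16 and 4 without the libraries). Nog and Fst, secreted inhibitors of BMP and of activin, rose by 2.23 ± 0.31 and 1.60 ± 0.15. On TPM the IGF and imprinted gene counts were 10 higher and 2 lower (median log2 0.71), and the matrix counts 20 and 5 (0.28). The Notch and reserve cell counts were 8 and 7 on TPM (median log2 0.03). The TGF-beta, BMP and myostatin counts were 9 and 9 on that scale (0.04). Feedback genes of the classical ERK pathway were called higher for 16 of 35 members and lower for 5, and without the libraries for 17 and 3, with a median log2 of 0.31 and 0.49. On TPM the counts were 9 and 8 (-0.06). Spry1, a feedback inhibitor that is also known from quiescent satellite cells, rose from 4.44 to 5.12 CPM to 26.1 to 35.0 CPM (2.75 ± 0.17), and Dusp4, a phosphatase of ERK, fell by 0.79 ± 0.21. The Dusp4 call was lost without DM2 libraries 1 and 2 (-0.17 ± 0.18, adjusted p = 0.509), and without library 3 its change was -1.24.

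Autophagy and lysosome genes were called higher for 21 of 36 members and lower for 2 (median log2 0.25), for 12 and 1 members without DM2 libraries 1 and 2 (0.23), and for 11 and 6 on TPM (-0.02). Map1lc3a, a coat protein of autophagosomes, stood at 104, 118 and 90.7 CPM in GM and at 388, 432 and 244 CPM at DM2 (1.76 ± 0.18, and 1.23 ± 0.19 without the libraries). Cholesterol synthesis genes were higher for 12 of 28 members and lower for 3, and without the libraries for 5 and 3. On TPM the cholesterol synthesis counts were 3 and 10 (median log2 -0.23). Of 33 ATF4 and unfolded protein genes, 12 were higher and 10 lower, beside 28.9 and 26.2% of all genes tested. On TPM the ATF4 counts were 6 and 14 (-0.36). Ddit3, the stress factor CHOP, went from 25.4, 31.6 and 26.9 CPM to 119, 143 and 72.8 CPM (1.99 ± 0.18), while the chaperone gene Hsp90b1 fell by 0.69 ± 0.07.

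Of 50 tested ribosomal protein genes, 20 were called higher and 1 lower (median log2 0.31), but without DM2 libraries 1 and 2 the counts were 2 and 1 and the median -0.06. With per-library offsets for transcript length and GC content they were 16 and 2, with a median of 0.09. Rpl37 stood at 298, 315 and 245 CPM in GM and at 534, 642 and 325 CPM at DM2 (0.81 ± 0.17, and 0.19 ± 0.14 without the libraries, adjusted p = 0.315). Ribosomal protein genes have many near-identical copies in the genome, so their counts are uncertain. Transcript length moved with the same libraries: in DM2 libraries 1, 2 and 3 the median log2(CPM + 1) difference from GM of 1101 genes under 1000 bases was 0.21, 0.20 and -0.05. This length summary was chosen after seeing the data, and its part in the result was not tested. Nuclear-encoded respiratory chain genes were higher for 8 of 38 and lower for 14, and without the libraries for 1 and 14. Interferon response genes were higher for 6 of 35 and lower for 11, and without the libraries for 4 and 3.

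The genes that changed most are given among called genes whose higher group averaged 5 CPM or more, with no overlap between groups and a gene name other than a clone or predicted-gene name. Of the 8 that rose most, Cilp, a cartilage matrix protein, led, from 1.82, 3.17 and 1.48 CPM to 56.6, 79.5 and 117 CPM (5.28 ± 0.40). Colec10, a collectin, rose by 4.91 ± 0.80, Itga10, a collagen-binding integrin subunit gene, by 4.54 ± 0.25, Smim5 by 4.47 ± 0.31, and Fndc5, the precursor of irisin, by 4.45 ± 0.27. The nuclear RNAs Malat1 and Kcnq1ot1 were also among them. Malat1 stood at 276, 297 and 241 CPM in GM and at 6580, 12700 and 1700 CPM at DM2 (4.68 ± 0.75), and Kcnq1ot1 at 0.966, 0.819 and 0.822 CPM and then 19.3, 39.1 and 8.28 CPM (4.66 ± 0.62). Their DM2 libraries follow the order of the share of reads outside genes, and a part of library quality in these rises was not tested. Without DM2 libraries 1 and 2 the rises were 2.66 ± 0.76 and 3.25 ± 0.61. Mef2c completes the 8.

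Of the 8 that fell most, Lgr6, an R-spondin receptor, went from 10.7, 12 and 13.8 CPM to 0.668, 0.682 and 0.400 CPM (-4.37 ± 0.27), and Krt13, a keratin, fell by 4.33 ± 0.29. Hgf, the growth factor that activates satellite cells, went from 26.8, 28.7 and 40.1 CPM to 1.22, 1.92 and 3.25 CPM (-3.90 ± 0.36). Apln, the peptide apelin, fell by 3.24 ± 0.24, Acsbg1, an acyl-CoA synthetase, by 2.95 ± 0.18, and Wnt10b, a Wnt ligand, by 2.86 ± 0.24. Cxcl5, a chemokine, fell by 2.77 ± 0.44 and Plekhg4 by 2.74 ± 0.19. The groups do not overlap for these 16 genes, which the choice of the genes required.

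As a reference for this response, the control line had 6356 genes called at DM2 against GM (45.6%). Both lines called 4052 genes, 3705 in the same direction and 347 in opposite directions, which is 48.2% of the ERK3-depleted calls and 58.3% of the control calls. The difference of the responses was called for 3983 genes (28.6%), 2033 higher and 1950 lower in the ERK3-depleted line. It was lower for 12 of 25 thick filament genes and higher for 0, lower for 9 of 26 thin filament genes and higher for 4, and lower for 9 of 15 junction genes and higher for 1. Myog rose by 1.72 ± 0.48 less than in control (adjusted p = 0.0162), and this call was lost without DM2 library 2 (adjusted p = 0.0609). In control Myog stood at 22.2, 10.1 and 13.5 CPM in GM and at 493, 615 and 670 CPM at DM2. The ERK3-depleted libraries held 42.9, 26.3 and 25.9 CPM and then 333, 294 and 499 CPM, so the lines also differed in GM. A difference of responses thus holds gaps in GM as well as gaps at DM2. Mymk rose by 2.42 ± 0.62 less (adjusted p = 0.0118), Actc1 by 2.21 ± 0.44 less (adjusted p = 0.00399), and Myod1 by 0.78 ± 0.18 less (adjusted p = 0.00632). The lowest differences among the named genes were in Sntb1 (syntrophin beta 1), Myoz2, Lmod2 (leiomodin 2), Tmem182, Casq2 (calsequestrin 2) and Atp7a, at -2.72 to -3.13. Ttn, Neb and Klhl40 had differences of 0.56, -0.14 and -0.06 that were not called (adjusted p from 0.249 to 0.928).

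Outside muscle genes the differences went both ways. Mki67 fell by 1.41 in control, a difference of 0.99 ± 0.22 (adjusted p = 0.00534). Pcna and Mcm4 lay on the other side, with differences of -1.33 ± 0.35 and -0.94 ± 0.25, as did Id2 and Id3 with -1.27 ± 0.22 and -0.89 ± 0.24. The cell cycle lists together held 0.594% ± 0.0529 of TPM in GM and 0.269% ± 0.0792 at DM2 in the ERK3-depleted line. In control they held 0.454% ± 0.0862 and 0.28% ± 0.0059 (SD, n = 3), so the gap between the lines was larger in GM. Of 35 interferon genes, 25 were called lower in control, and the difference was called higher for 10 and lower for 2. In the MK5-depleted line 11 interferon genes were called higher and 2 lower, so that line also departed from control. Ifit1, an interferon-induced antiviral protein, fell by 2.09 in control and differed by 2.90 ± 0.50. Ribosomal protein genes were called higher for 1 and lower for 35 of 50 in control. In the MK5-depleted line the ribosomal counts were 13 and 1. Of 50 ribosomal protein genes, 37 differed upward and 0 downward, and without ERK3-depleted DM2 libraries 1 and 2 the counts were 1 and 0. Without them the interferon counts were 5 and 0.

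**Figure D5:**
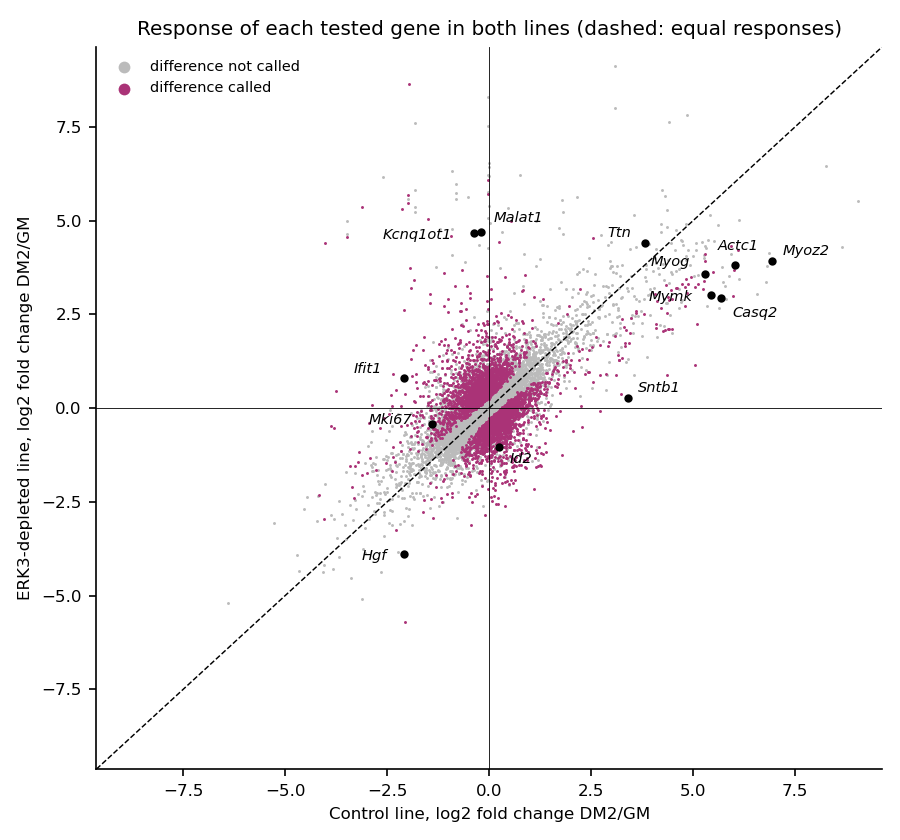
Log2 fold change DM2 against GM of each of 13939 tested genes in the control line (horizontal) and the ERK3-depleted line (vertical), with genes whose difference was called in purple and the rest in grey. Muscle genes such as Actc1, Mymk and Casq2 lie to the right of the dashed line of equal responses, and Malat1 and Kcnq1ot1 lie above it.

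A fit without ERK3-depleted DM2 libraries 1 and 2 has fewer samples, and whether the differences depend on those libraries was not tested. Without them 155 genes differed (96 higher and 59 lower), of which 150 were also called with all libraries, while the sign stayed the same for each of the 3983 genes called with all libraries. Those 3983 genes were chosen by their call in a fit that shares DM2 library 3 and the other groups. The agreement in sign is therefore no independent check. Without library 1 alone 2556 genes differed, without library 2 alone 2459, and without library 3 alone 5835. Without GM library 3, 1361 genes were higher and 1176 lower. Each of 77 named differences was refitted without each of the 12 libraries of the 2 lines in turn, and 49 were called in every refit. With 1 DM2 library the differences were -1.32 ± 0.64 for Myog (adjusted p = 0.293), -1.90 ± 0.79 for Mymk (0.223) and -1.63 ± 0.48 for Actc1 (0.106). Of the 77 named differences, 8 were still called without both libraries: Mki67, Id3, Id2, Pdk4, Srebf1, Ifit1, Ndufs1 and Itga10. For the thick filament, thin filament and junction lists the counts of differences fell to 0.

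No gene differed in response from the MK5-depleted line at an adjusted p under 0.05 by edgeR, DESeq2 or limma-voom, with 1017 genes (7.30%) at an unadjusted p under 0.05 by edgeR. Without ERK3-depleted DM2 library 3, 347 genes differed, and without a filter on low counts 279. A missed threshold does not show that the lines respond alike. The MK5-depleted line called 6876 genes (49.3%), and its thick filament, thin filament and mitosis medians were 3.78, 3.00 and -0.92, beside 2.97, 2.81 and -1.0 here.

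Some markers of other cell types were at 0, and others in the same lists were counted. Those at 0 in all 6 libraries were 1 of 10 neural and Schwann markers and 2 of 8 epithelial markers. They were 2 of 11 for fibroblasts and 2 of 10 for bone and cartilage. The 6 libraries had no count for Plin1, Cidec, Lep and Cfd of fat cells, Tie1, Emcn and Cldn5 of endothelium, Adgre1, Itgam, Cd3e and Tyrobp of blood cells, Sox10 of Schwann cells, Epcam and Krt5 of epithelium, Thy1 and Tcf21 of fibroblasts, or Ibsp and Acan of bone and cartilage. The top gene of the neural list, Stmn2, averaged 97.7 CPM over the 6 libraries. Sox9 of the bone and cartilage list averaged 82.1 CPM, Cebpa of the fat cell list 45.9 CPM and Krt14 of the epithelial list 32.2 CPM. The endothelial list summed to 3.91 to 6.06 CPM and the leukocyte list to 1.55 to 3.90 CPM. The fibroblast list, led by Ly6a, summed to 319 to 390 CPM in GM and 195 to 224 CPM at DM2, with 2 of 6 tested genes called higher and 2 lower. From GM to DM2 the adipocyte list went from 63.4 to 68.6 CPM to 35.7 to 45.6 CPM, the epithelial list from 37.7 to 51.9 CPM to 22.1 to 28.6 CPM, the neural list from 178 to 219 CPM to 153 to 202 CPM, and the osteoblast and chondrocyte list from 105 to 113 CPM to 126 to 192 CPM. The part of these markers in the results was not tested. Smooth muscle genes, many of which young skeletal muscle cells also express, were called higher for 5 of 7 tested, and their sum went from 5490 to 7140 CPM to 7270 to 8370 CPM.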

How the data were processed

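RNA was measured in 18 libraries of C2C12 cells, 3 per line and medium. Per the labels' protocols, poly-A RNA was made into stranded libraries with a KAPA kit, and per the submitters' processing notes the tools were bcl2fastq 2.17, STAR 2.5.1b and RSEM 1.2.28 with GRCm38. The authors deposited whole-number counts per gene in 3 strand columns, of which the reverse-strand column was used, RSEM expected counts, which were rounded to whole numbers first, and TPM. The summary lines that name no gene held 21.7 to 35.8% of reads and were left out. Of 50600 gene IDs, 50376 matched GENCODE names.

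Genes were kept with filterByExpr, libraries scaled by TMM, and 1 model of 6 group means over all 18 libraries fitted with edgeR 4.0.16 (R 4.3.3) by its quasi-likelihood test. A gene was called at a Benjamini-Hochberg adjusted p under 0.05 over all 13939 genes tested. The interaction is the ERK3-depleted change minus that of another line. Each SE is the absolute log2 fold change divided by the square root of the F statistic of the edgeR test. It is therefore approximate, above all for changes near 0 and genes with few counts. DESeq2 1.42.0, limma 3.58.1 and other filters, scalings, units and left-out libraries were tried as alternatives, and the fit was tested on simulated data. The simulation changed few genes and drew the libraries independently. It does not test the fit where most genes change or where DM2 libraries deviate together. Named genes are a fixed set (ERK3-MK5-FoxO3 genes, muscle factors, Mki67, Cdkn1a, Ccnd1, Fbxo32 and Trim63), up to 4 called members per direction with the largest change in each main list and 3 in each other list, the 8 genes that rose and the 8 that fell most, and the 6 highest and 6 lowest interactions with control, with at least 5 CPM in the higher group for all but the fixed set. The members and lists were chosen with earlier results of these data known. Replicate numbers are given by the labels for each group. Same-numbered GM and DM2 libraries deviated together in the ERK3-depleted line (r = 0.156, 0.291 and 0.290) but not in each pair of the other lines, so the block is an alternative. Some genes chosen by the rule for named genes are not reported here.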

Additional observations from a re-analysis of the deposited data

Results flagged for a closer look

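For 77 of the 168 named genes the log2 change at DM2 differed between the ERK3-depleted and the control line in the interaction test of edgeR (adjusted p under 0.05). Over all genes tested that share was 28.6%. The named genes were chosen partly for the size of their change or difference, which raises their count. The values are the ERK3-depleted change minus the control change. A negative value is a smaller rise, a larger fall, or a fall where control rose. A positive value is a larger rise, a smaller fall, or a rise where control fell. Of these differences, 49 were called in every refit without 1 library and 8 without ERK3-depleted DM2 libraries 1 and 2. The calls lost in at least 1 refit without 1 library were those of Apln, Atp2a1, Cacna1s, Ccnd1, Chac1, Ckm, Csrp3, Ctsd, Cycs, Dll1, Dock1, Dok7, Fasn, Foxo1, Hoxc8, Igf2, Itgb1bp2, Ltbp1, Myh3, Myog, Myoz2, Neat1, Pdia6, Rbl1, Rheb, Rpl5, Synpo2l and Twist2. The Apln difference was -0.50 without control DM2 library 2 (adjusted p = 0.163), and that of Chac1 was -1.12 without control GM library 1.

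Among kinase, FoxO and ERK feedback genes the difference was negative for Mapk6 (-0.70), Rheb (-0.38), Irs2 (-0.44) and Dusp4 (-1.30) and was positive for Mapk12 (0.92), Pak3 (0.87) and Foxo1 (0.64). Among myogenic factors and their repressors the difference was negative for Myog (-1.72), Myod1 (-0.78), Mef2d (-0.79), Tead4 (-1.25), Id3 (-0.89) and Id2 (-1.27) and was positive for Tcf4 (1.21) and Twist2 (0.57). Among cell cycle genes the difference was negative for Pcna (-1.33), Mcm4 (-0.94), Rbl1 (-0.70) and Ccng2 (-0.51) and was positive for Mki67 (0.99) and Ccnd1 (0.51). Among fusion genes the difference was negative for Mymk (-2.42), Erbb3 (-2.07) and Dock1 (-0.60). Among sarcomere and Z-disc genes the difference was negative for Myh3 (-1.88), Actc1 (-2.21), Myoz2 (-3.02), Csrp3 (-1.78) and Synpo2l (-1.24). Among calcium store, junction and costamere genes the difference was negative for Cacna1s (-1.40), Atp2a1 (-1.44), Dok7 (-1.52), Chrng (-1.14), Chrnd (-1.04) and Itgb1bp2 (-1.19). Among energy and respiratory chain genes the difference was negative for Ckm (-1.38), Pdk4 (-1.02), Pfkm (-1.03), Ndufs1 (-1.18), Atp5b (-0.72) and Atp5a1 (-0.63) and was positive for Cycs (1.52), Uqcrq (0.85) and Cox8a (0.68). Among growth factor, Notch and TGF-beta genes the difference was negative for Igf2 (-1.28) and Dll1 (-1.07) and was positive for Igfbp4 (0.96) and Ltbp1 (0.50). Among cholesterol and stress response genes the difference was negative for Srebf1 (-0.87), Stard4 (-0.88), Chac1 (-0.74), Pdia6 (-0.29), Hsp90b1 (-0.36) and Ero1l (-0.56) and was positive for Fasn (0.63) and Ddit3 (1.15). Among interferon and ribosomal protein genes the difference was positive for Ifit1 (2.90), Rpl13 (1.61), Rpl5 (0.47) and Rpl37 (1.05). Among autophagy and lysosome genes the difference was positive for Map1lc3a (1.28), Ctsd (0.59) and Gabarap (0.97). Among genes named for the size of their change or difference the difference was negative for Hgf (-1.80), Apln (-0.96), Sntb1 (-3.13), Lmod2 (-2.98), Tmem182 (-2.87), Casq2 (-2.75) and Atp7a (-2.72) and was positive for Acsbg1 (1.11), Malat1 (4.88), Kcnq1ot1 (5.03), Itga10 (2.00), Hoxc8 (3.83), Neat1 (2.96) and Mir99ahg (2.86). Pak3 and Ctsd differed in the opposite direction on TPM. Malat1, Kcnq1ot1, Mir99ahg and Hoxc8 were highest in DM2 libraries 1 and 2, the libraries with most reads outside genes, and the part of library quality in them was not tested.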

How the results depend on the processing

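Of 5938 pairs of a named gene value and an alternative setting, 5476 kept direction and side of the threshold, 406 lost the call, 5 gained it and 51 changed sign. The DM2 response in the ERK3-depleted line counted 4023 higher and 3657 lower genes. It counted 1223 higher and 880 lower against a 1.5-fold change, 1714 higher and 5599 lower on log2(TPM + 1), 1692 higher and 5648 lower with pseudocount 0.1, 2107 higher and 5399 lower on TPM without a filter, and 2390 higher and 1992 lower without DM2 libraries 1 and 2. The difference from control counted 2033 higher and 1950 lower genes. It counted 762 higher and 734 lower at an adjusted p under 0.01, 14 higher and 6 lower against 1.5-fold, 599 higher and 5378 lower, 580 higher and 5323 lower and 598 higher and 4311 lower on the same TPM settings, and 96 higher and 59 lower without DM2 libraries 1 and 2, a fit with fewer samples. The difference from the MK5-depleted line counted 184 higher and 95 lower without a filter and 4 higher and 3 lower on TPM without a filter. Leaving out 1 library at a time gave 3355 to 4324 higher and 3068 to 4059 lower for the response, 1222 to 2875 and 1117 to 2960 for the difference from control, and 0 to 210 and 0 to 137 for that from the MK5-depleted line. With the replicate block the response counted 4180 higher and 3895 lower and the difference from control 2337 higher and 2338 lower. The block called Mef2d (0.21) and ended the differences of Igf2, Cycs and Neat1, and changed no other named call. On log2(TPM + 1) the p53 target list counted 5 higher and 12 lower, and the interferon list 0 and 15. The respiratory chain list counted 4 higher and 24 lower on that scale, and the ribosomal protein list 11 and 16. The remaining causes were not tested.

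Values that changed sign are log2 changes, and most belong to genes that were not called. Length and GC offsets gave Mapk6 0.10, Foxo3 -0.16 and Neat1 -0.61. Length and GC offsets with replicate block gave Mapk6 0.10, Foxo3 -0.17 and Neat1 -0.69. The fit without DM2 libraries 1 and 2 gave Mapk6 0.21 and Neat1 -0.88. The fit without GM replicate 3 gave Mapk6 0.081 and Neat1 -0.046. The fit without DM2 replicate 2 gave Mapk6 0.085 and Neat1 -0.40. TPM gave Mapkapk5 -0.10, Foxo3 -0.31, Fbxo32 -0.079, Mef2d -0.15, Six4 -0.10, Pak3 (difference from control) -0.48, Ctsd (difference from control) -0.38 and Neat1 -0.72. TPM with pseudocount 0.1 gave Mapkapk5 -0.11, Foxo3 -0.35, Fbxo32 -0.084, Mef2d -0.16, Six4 -0.12, Pak3 (difference from control) -0.53, Ctsd (difference from control) -0.38 and Neat1 -0.73. TPM without a filter gave Mapkapk5 -0.10, Foxo3 -0.31, Fbxo32 -0.079, Mef2d -0.15, Six4 -0.10, Pak3 (difference from control) -0.48, Ctsd (difference from control) -0.38 and Neat1 -0.72. No filter gave Foxo3 -0.018. A filter of 1 CPM gave Foxo3 -0.008. The 6 libraries alone gave Foxo3 -0.011. The 6 libraries with a block gave Foxo3 -0.010 and Neat1 -0.035. RSEM expected counts gave Foxo3 -0.019 and Neat1 -0.081. The fit without GM replicate 1 gave Foxo3 -0.066 and Neat1 -0.058. The fit without DM2 replicate 3 gave Foxo3 -0.065 and Sntb1 -0.29. Unstranded counts gave Ccnd1 (difference from control) -0.34 and Mef2d -0.009. Limma-voom gave Neat1 -0.024. Replicate block gave Neat1 -0.015. Leaving out 1 library gave Foxo3 -0.066 to 0.076, Sntb1 -0.290 to 0.589 and Neat1 -0.402 to 0.380. Depth of 17.5 to 19.4 M counts limits genes near 1 CPM, such as Mef2c in GM.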
